A study of Mus musculus with 33 samples.

Results

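The nuclear factor I genes Nfia, Nfib, Nfic and Nfix were followed while paraxial mesoderm derived from mouse embryonic stem cells was driven toward tendon or toward fibrocartilage. The 4 members were taken by gene symbol from a table of 17120 genes, and all 4 were present and counted in every library. All 4 were scarce in the starting cells relative to day 4. By day 4 of induction each had risen in both trajectories, between 4.86-fold and 26.6-fold over the starting cells. The early course differed: Nfic had already reached 2.1-fold or more of its starting level at day 0.25, whereas Nfib first fell.

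Bulk RNA sequencing was available for 33 cultures in 11 groups of 3. The starting group, PM, was paraxial mesoderm taken from embryoid bodies at day 0. The other 10 groups were monolayers exposed to CD1530, an agonist of retinoic acid receptor gamma, or to AGN 193109 (AGN), an inverse agonist of retinoic acid receptors, and taken at 0.25, 0.75, 1.5, 2.5 and 4 days. CD1530 is the tendon condition of the study and AGN the fibrocartilage condition. All cells came from embryonic stem cells carrying the ScxGFP tendon reporter, and all PM was made with LDN-193189 and CHIR. Both ligands were given in the same medium with TGFβ1, the hedgehog agonist SAG and FGF2, so neither group lacks these factors, and no group at a later time lacked a retinoid ligand. The study's methods also describe AGN 193109 as an addition while PM is being made, and whether the PM used here received it is not given in the sources used here. The study worked with several reporter lines, and which line gave which library is not given either. Libraries held 17.1 to 22.8 M counts, apart from AGN day 2.5 replicate 1 with 38.1 M, and a member's count in 1 library ranged from 54 to 8547.

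Nuclear factor I proteins are transcription factors that bind, as dimers, a palindrome with the core motif TTGGC. They share a conserved amino-terminal DNA-binding and dimerisation region, and their carboxy-terminal parts, which activate or repress transcription, differ more. Nfia and Nfib are known for gliogenesis and for brain and lung development, Nfic for tooth root formation, and Nfix for brain development and the switch from embryonic to fetal muscle. Retinoic acid receptors are ligand-dependent transcription factors, and in the absence of agonist or with an inverse agonist they repress their targets.

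The genes lie at separate places on the GRCm38 genome, as annotated by GENCODE M21. Nfia (ENSMUSG00000028565) is on chr4:97772734-98118874 on the plus strand, and Nfib (ENSMUSG00000008575) on chr4:82290173-82705750 on the minus strand. Nfic (ENSMUSG00000055053) is on chr10:81396186-81455635 and Nfix (ENSMUSG00000001911) on chr8:84699876-84800344, both on the minus strand. In a transcript of each gene, coding exon 2 has 532 bases, and 351 of these, or 66.0%, are the same in all 4 genes. Nfic and Nfix were the most alike pair in this exon, with 82.0% identity, and Nfia and Nfic the least alike, with 75.8%. The 90 bases of this exon with the most positions identical in all 4 genes are shown. They let a reader see the members where they are closest, and how reads can still tell them apart. Capitals mark the 22 positions at which the 4 genes are not all the same, and the other 68 positions are identical.
Nfia: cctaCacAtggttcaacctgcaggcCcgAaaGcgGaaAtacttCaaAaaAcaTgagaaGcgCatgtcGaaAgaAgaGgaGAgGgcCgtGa
Nfib: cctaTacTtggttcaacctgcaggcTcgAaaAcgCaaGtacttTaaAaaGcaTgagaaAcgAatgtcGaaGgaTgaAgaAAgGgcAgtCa
Nfic: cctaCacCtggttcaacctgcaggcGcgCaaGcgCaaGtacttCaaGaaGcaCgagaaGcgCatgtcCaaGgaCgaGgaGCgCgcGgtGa
Nfix: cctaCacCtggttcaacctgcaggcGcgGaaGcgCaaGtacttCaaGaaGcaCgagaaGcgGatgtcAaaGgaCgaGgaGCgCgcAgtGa
These windows, written 5′ to 3′ along the gene, are at chr4:97783134-97783223, chr4:82498628-82498717, chr10:81420657-81420746 and chr8:84772174-84772263. The longest run of bases shared by any transcripts of 2 members was 32 bases, between Nfic and Nfix (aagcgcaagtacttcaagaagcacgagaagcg). That run is shorter than the 150-base reads, and for the other pairs the longest run was 18 to 25 bases. Some exon sequence overlaps genes on the opposite strand: 72 bases of Nfic with Gm16104, and 137 and 4 bases of Nfix with G430095P16Rik and Lyl1. The strand setting of the counting is not stated, so reads from those bases cannot be assigned to one strand, but the overlaps cover a small part of merged exons of 6630 bases (Nfic) and 7351 bases (Nfix).

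Because the compared ligands act on retinoic acid receptors, the promoters were read for the nuclear receptor core motifs AGGTCA and GGTTCA on both strands. RefSeq promoter windows on GRCm38.p6, from 250 bases before to 50 after a transcript start, were matched for 3 of the 4 members, with 1 window for Nfia, 1 for Nfic and 4 for Nfix. Among all 32851 windows, AGGTCA was present in 16.3% and GGTTCA in 10.4%. The Nfia window held 1 GGTTCA and the most upstream Nfix window held 2, while the Nfic window held neither motif. AGGTCA occurred once in each of 2 other Nfix windows. The 250 bases upstream of the start are printed for the windows with GGTTCA, with the core motifs, or their reverse complement, in capitals.
Nfia: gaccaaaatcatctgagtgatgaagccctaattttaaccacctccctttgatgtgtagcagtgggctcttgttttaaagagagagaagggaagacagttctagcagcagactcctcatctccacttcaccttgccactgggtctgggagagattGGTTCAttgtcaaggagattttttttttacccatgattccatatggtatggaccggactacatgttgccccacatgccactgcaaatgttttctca
Nfix: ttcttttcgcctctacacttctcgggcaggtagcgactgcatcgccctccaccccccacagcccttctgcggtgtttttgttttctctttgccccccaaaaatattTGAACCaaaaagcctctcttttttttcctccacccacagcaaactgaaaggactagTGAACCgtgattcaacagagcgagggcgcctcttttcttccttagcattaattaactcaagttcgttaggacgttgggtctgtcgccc
These are chr4:97581693-97581942 on the plus strand and chr8:84780083-84780332 on the minus strand. The RefSeq start of Nfia lies far upstream of the GENCODE start given above, and that of Nfix inside the GENCODE gene. For Nfia the printed bases end at 97581942, whereas the GENCODE gene starts at 97772734. Which start is used in these cells was not tested. The nuclear factor I core motif TTGGC, searched in the same way, was absent from the windows of Nfia and Nfic and present in 3 of the 4 Nfix windows, with 4 matches in all, against 46.7% of all windows. The palindrome of TTGGC and its reverse complement with 5 bases between them was in 0.0365% of all windows and in none of the members' windows. A match is a description of letters, and binding was not measured.

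To ask how the members moved from PM, levels were expressed as counts per 1000000 (CPM) after TMM normalization, and tests used edgeR's quasi-likelihood fit with p-values adjusted over all genes. Called here means an adjusted p under 0.05. Across the 40 comparisons of a later group with PM, 35 were called higher and 3 lower. Calls against PM were common in the whole table: at the successive times 34.5%, 38.3%, 39.8%, 41.2% and 43.3% of all genes were called higher with CD1530, and 35%, 39%, 37.3%, 38.3% and 41.6% with AGN. The 3 lower calls were all of Nfib, at day 0.25 with either ligand, when 33.3% (CD1530) and 33.1% (AGN) of genes were called lower, and at day 0.75 with AGN, when 34.5% were. Within a trajectory, 30 of the 32 comparisons of a time point with the one before it were called higher. The share of all genes called higher over the 4 successive steps was 25.8%, 18.7%, 18.8% and 27.4% with CD1530 and 24.9%, 14.2%, 21.4% and 29.9% with AGN.

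Nfia was at 3.68, 3.87 and 2.91 CPM in the 3 PM libraries. With CD1530 its libraries held 5.1, 6.54 and 5.5 CPM at day 0.25, 12.5, 13.4 and 12.9 at day 0.75, and 26.9, 28.2 and 28.5 at day 1.5. They went on to 39.8, 45.0 and 44.2 CPM at day 2.5 and 89.8, 93.1 and 98.1 at day 4. No library of a later CD1530 time point overlapped an earlier one. With AGN the 3 libraries held 5.44, 5.91 and 6.4 CPM at day 0.25, 11.9, 11.4 and 13.2 at day 0.75, 17.8, 19.8 and 19.1 at day 1.5, 33.3, 32.9 and 33.8 at day 2.5, and 84.8, 81.5 and 81.2 at day 4. Nfia rose at every step in both trajectories. At day 4 the level was 26.6-fold that of PM with CD1530 (log2 fold change 4.73 ± 0.08 SE, edgeR adjusted p = 8.5e-38) and 23.5-fold with AGN (4.55 ± 0.08, edgeR adjusted p = 5.22e-37).

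Nfib fell before it rose, from 15.4, 13.3 and 15.1 CPM in PM. At day 0.25 its level was 11.3, 11.1 and 12.7 CPM with CD1530 and 11.1, 12.8 and 12.3 CPM with AGN, and every one of these libraries lay below every PM library. The log2 fold change against PM was -0.32 ± 0.08 with CD1530 (edgeR adjusted p = 0.00109) and -0.27 ± 0.08 with AGN (edgeR adjusted p = 0.0044). At day 0.75 the CD1530 libraries were at 13.6, 14.8 and 14.3 CPM, with a difference from PM of -0.04 (95% CI -0.2 to 0.13). The AGN libraries were still low at that time, at 11.5, 9.81 and 11.7 CPM, and their log2 fold change from PM was -0.4 ± 0.09 (edgeR adjusted p = 7.21e-05). From day 1.5 both trajectories exceeded PM. The CD1530 libraries passed through 26.1, 28.3 and 27.5 CPM at day 1.5 and 49.1, 51.7 and 49.0 at day 2.5 to 91.6, 91 and 89.9 at day 4. The AGN libraries passed through 18.9, 20.5 and 17.5 CPM and 39.1, 34.2 and 42.3 to 71.0, 72.7 and 69.0. At day 4 these levels were 6.23-fold and 4.86-fold that of PM, the smallest fold changes of the 4 members in their trajectories.

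Nfic had the largest fold change of the 4 members from PM to day 0.25. In PM its libraries held 41.7, 40.5 and 40.0 CPM. At day 0.25 they held 87.1, 90.5 and 88.2 CPM with CD1530 and 86.4, 85.7 and 85.1 CPM with AGN, which was 2.18-fold and 2.1-fold the PM level (edgeR adjusted p = 3.84e-25 and 2.23e-24). With CD1530 the level then rose at each step, to 119, 131 and 137 CPM at day 0.75, 166, 169 and 170 at day 1.5, 200, 206 and 200 at day 2.5, and 299, 301 and 302 at day 4. With AGN it held 139, 132 and 135 CPM at day 0.75 and 132, 134 and 133 at day 1.5. This step did not pass the test (log2 fold change -0.03, 95% CI -0.1 to 0.05). The AGN libraries then reached 231, 215 and 225 CPM at day 2.5 and 328, 323 and 320 at day 4. At day 4 Nfic was 7.38-fold the PM level with CD1530 and 7.94-fold with AGN.

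Nfix rose most between day 2.5 and day 4, the longest interval between sampled times. In mean CPM that interval also held the largest rise of each other member. Its PM libraries held 8.85, 9.45 and 6.3 CPM. At day 0.25 the CD1530 libraries, at 7.22, 11 and 9.07 CPM, overlapped those of PM, and the difference was 0.15 (95% CI -0.12 to 0.41). The AGN libraries of that time, at 14.7, 11.9 and 14.1 CPM, lay above PM, with a log2 fold change of 0.72 ± 0.12 (edgeR adjusted p = 7.23e-06). With CD1530 the level then ran through 15.9, 17.6 and 17.2 CPM at day 0.75, 30.7, 29.3 and 28.3 at day 1.5, and 61.3, 67.9 and 67.3 at day 2.5. At day 4 it was 156, 164 and 156 CPM. With AGN it ran through 19.7, 17.1 and 16.1 CPM, 25.3, 26.1 and 22.1, and 62.6, 58.4 and 65.1 to 197, 187 and 185 at day 4. These day 4 levels were 19.2-fold (CD1530) and 23-fold (AGN) that of PM. The last step, from day 2.5 to day 4, gave 3.06-fold in AGN and 2.42-fold in CD1530, the largest of its steps in each trajectory. The AGN step from day 0.25 to day 0.75 (0.38 ± 0.11, edgeR adjusted p = 0.00481) lost its call in 1 of 6 removals of a library. Without AGN day 0.75 replicate 1 the step was 0.29 (edgeR adjusted p = 0.0528).

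**Figure D1:**
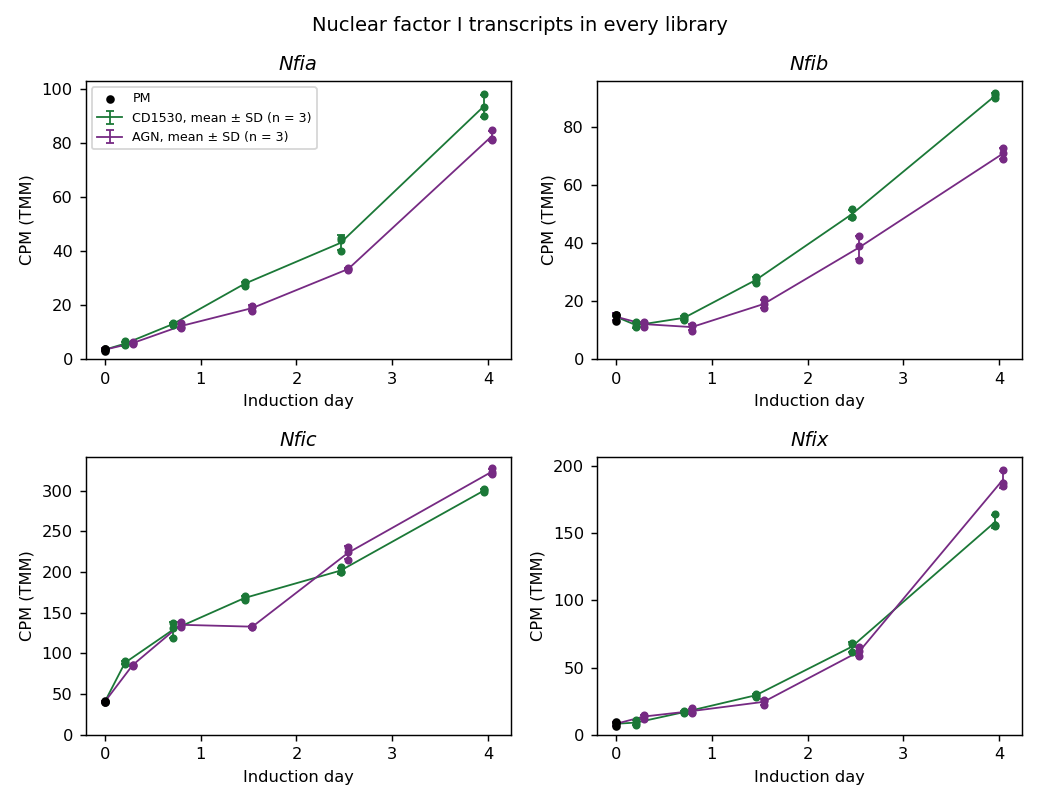
TMM-normalized CPM (y axis, linear) of each gene against induction day (x axis), with 1 point per library, PM in black at day 0, and lines and bars for the mean ± SD of 3 libraries with CD1530 (green) or AGN (purple). Nfia and Nfib run higher with CD1530 from day 1.5, and Nfic pauses with AGN at 133 CPM at day 1.5. Every gene has its largest rise in CPM between day 2.5 and day 4, the longest interval.

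The timing is clearer when each level is set against the whole rise from PM to day 4 in mean CPM. At day 0.25, Nfic had reached 18.4% of its rise with CD1530 and 15.9% with AGN. Nfia had reached 2.46% and 3.07%, and Nfix 0.595% and 2.96%, while Nfib stood at -3.83% and -4.5%, below its PM level. At day 2.5 Nfic stood at 62.0% and 64.8%, Nfib at 46.3% and 42.5%, Nfia at 43.8% and 37.8%, and Nfix at 38.1% and 29.6%. These shares are descriptions of group means, with no test.

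**Figure D2:**
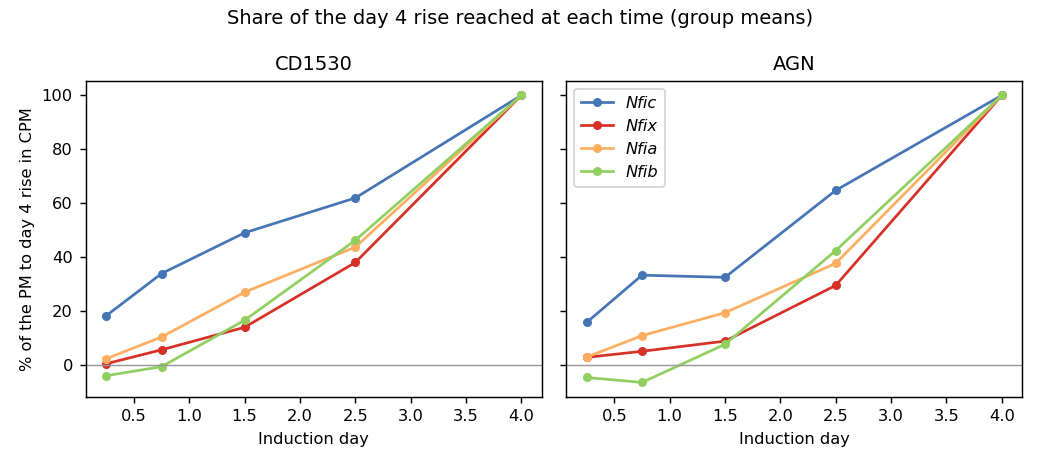
Share of the rise in mean CPM from PM to day 4 (y axis, percent) reached at each induction day (x axis), with CD1530 on the left, AGN on the right and 1 line per gene. Nfic leads at every time before day 4 in both panels, and Nfib lies below 0 at days 0.25 and 0.75.

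Placing all 11 groups of each gene in order shows which neighbours could be separated. Neighbours were picked by their means in these same libraries, so passing the test here only describes how far they overlap. No share over all genes was computed for these counts. For Nfia, 8 of the 10 neighbouring pairs passed the test, and the ligands could not be separated at day 0.25 or at day 0.75. For Nfib, 7 of 10 passed, and the groups that could not be separated were AGN day 0.75 from CD1530 day 0.25, CD1530 day 0.25 from AGN day 0.25, and CD1530 day 0.75 from PM. The order of Nfic had 7 of 10 pairs past the test, and could not separate AGN day 0.75, AGN day 1.5 and CD1530 day 0.75, at 135, 133 and 129 CPM, or the ligands at day 0.25. Nfix also had 7 of 10, with CD1530 day 0.25 next to PM and the ligands next to each other at days 0.75 and 2.5.

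The comparison of the ligands at each time asks whether the members follow the tendon or the fibrocartilage condition. Of 20 comparisons of CD1530 with AGN, 13 were called, 9 higher and 4 lower with CD1530. By sign alone, Nfia and Nfib were higher with CD1530 wherever they were called, and Nfic and Nfix switched sides with time. The sizes were moderate or small beside those of all genes. At day 4, 34.6% of genes had a larger difference than Nfib, 44.5% than Nfix, 56.2% than Nfia and 72.1% than Nfic. At day 1.5 these shares were 13% (Nfib), 28.9% (Nfix), 11.8% (Nfia) and 22% (Nfic). At day 0.25, 1.23% of all genes were called higher and 0.695% lower with CD1530, 1.92% in all, and 1 of the 4 members was called. At day 0.75 the shares were 7.94% higher and 10% lower, 18% in all, and 1 member was called, higher. At day 1.5 all 4 members were called higher, against 15.2% of all genes higher and 11.8% lower, 26.9% in all. At day 2.5, with calls for 20.4% of genes higher and 19.6% lower, 40% in all, 2 members were higher and 1 lower. At day 4, with 22.7% of genes higher and 24% lower, 46.6% in all, 2 members were higher and 2 lower. The libraries of the ligands did not overlap for 2, 1, 4, 3 and 4 members at the successive times, and for 21.1%, 26.3%, 42.5%, 51.4% and 57% of all genes.

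Nfia did not pass the test between ligands at day 0.25 (log2 fold change CD1530 minus AGN -0.05, 95% CI -0.26 to 0.16) or at day 0.75 (0.09, 95% CI -0.07 to 0.25). At day 1.5 it was 1.47-fold higher with CD1530 (0.56 ± 0.07, edgeR adjusted p = 1.21e-08). The difference was 0.37 ± 0.06 at day 2.5 (edgeR adjusted p = 3.97e-06) and 0.18 ± 0.06 at day 4 (edgeR adjusted p = 0.00591), with no overlap between libraries at any of these times. The day 4 call was lost in 1 of 6 removals of a library: without CD1530 day 4 replicate 3 the value was 0.15 (edgeR adjusted p = 0.0514).

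Nfib was called higher with CD1530 at every time from day 0.75. At day 0.25 the value was -0.04 (95% CI -0.22 to 0.13). At day 0.75 Nfib was 1.29-fold higher with CD1530 (0.37 ± 0.09, edgeR adjusted p = 0.00138), and its 3 libraries lay above the 3 AGN libraries. The difference was 0.52 ± 0.07 at day 1.5 (edgeR adjusted p = 2.64e-07), 0.37 ± 0.06 at day 2.5 (edgeR adjusted p = 6.62e-06) and 0.36 ± 0.06 at day 4 (edgeR adjusted p = 3.11e-06). These calls held with each library left out.

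Nfic changed sign. At days 0.25 and 0.75 the differences were 0.05 (95% CI -0.03 to 0.13) and -0.07 (95% CI -0.14 to 0.01). The first of these came from libraries that did not overlap, and the second was called only without CD1530 day 0.75 replicate 3 (-0.11, edgeR adjusted p = 0.0349). At day 1.5 Nfic was 1.27-fold higher with CD1530 (0.34 ± 0.04, edgeR adjusted p = 1.3e-09). At day 2.5 it was lower with CD1530 (-0.15 ± 0.04, edgeR adjusted p = 0.00101), and at day 4 as well (-0.11 ± 0.04, edgeR adjusted p = 0.0143). The day 4 value was small and lost its call without AGN day 4 replicate 1 (-0.10, edgeR adjusted p = 0.0525) and when libraries were scaled by their totals alone (-0.07, edgeR adjusted p = 0.0977).

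Nfix changed sign as well. At day 0.25 it was lower with CD1530 (-0.57 ± 0.12, edgeR adjusted p = 0.00542), when few genes differed between ligands, and 0.695% of all genes were called lower. Without AGN day 0.25 replicate 1 the value was -0.51 (edgeR adjusted p = 0.0547). At day 0.75 the libraries overlapped (-0.07, 95% CI -0.28 to 0.14). At day 1.5 the value was 0.26 ± 0.09 (edgeR adjusted p = 0.0372), a call that was lost without CD1530 day 1.5 replicate 1 or 2 (0.23 and 0.26, edgeR adjusted p = 0.119 and 0.0798) and without AGN day 1.5 replicate 1 or 3 (0.28 and 0.19, edgeR adjusted p = 0.0579 and 0.197). At day 2.5 it was 0.08 (95% CI -0.09 to 0.24), and at day 4 Nfix was lower with CD1530 (-0.26 ± 0.07, edgeR adjusted p = 0.00404).

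**Figure D3:**
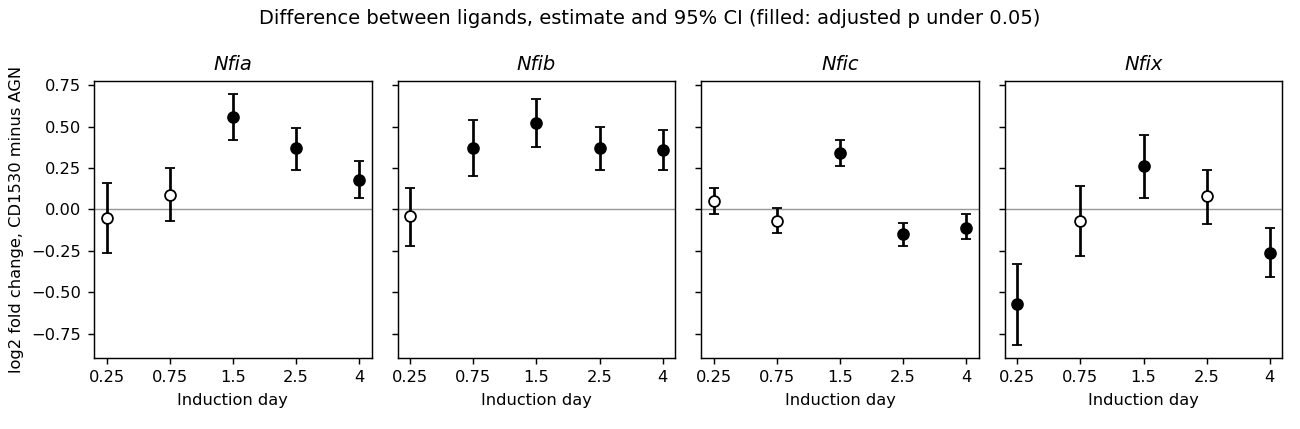
Log2 fold change of CD1530 minus AGN (y axis) at each induction day (x axis, categories), 1 panel per gene, with 95% confidence intervals, filled points for an adjusted p under 0.05 and open points otherwise. Nfia and Nfib are above 0 from day 1.5 onwards, and Nfic and Nfix are above 0 at day 1.5 and below 0 at day 4.

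Whether the difference between ligands changed with time was tested by an F test with 4 degrees of freedom over the 5 times, in which 48.8% of all genes were called. All 4 members were called, with Nfic at F = 27.8 (edgeR adjusted p = 8.62e-10), Nfix at 10 (0.000153), Nfia at 9.36 (0.000105) and Nfib at 6.59 (0.00136). By steps, 5 of 16 differences of a step between ligands passed the test. From day 0.75 to day 1.5 the change was larger with CD1530 for Nfia (0.47 ± 0.1, edgeR adjusted p = 0.00237) and for Nfic (0.41 ± 0.05, edgeR adjusted p = 5.5e-07), in a step in which 9% of genes were called. Nfic then went the other way from day 1.5 to day 2.5 (-0.49 ± 0.05, edgeR adjusted p = 3.11e-09, with 11.5% of genes called). Nfib differed in the step from day 0.25 to day 0.75 (0.41 ± 0.12, edgeR adjusted p = 0.0375, with 4.82% of genes called). Nfix differed in the step from day 2.5 to day 4 (-0.34 ± 0.11, edgeR adjusted p = 0.0199, with 26.8% of genes called), and rose less with CD1530. The Nfib step was not called without CD1530 day 0.25 replicate 1 or 2, AGN day 0.25 replicate 2 or 3, CD1530 day 0.75 replicate 2 or 3, or AGN day 0.75 replicate 2 (0.33 to 0.41, edgeR adjusted p = 0.0563 to 0.157). The Nfix step was not called without CD1530 day 2.5 replicate 2 or 3, AGN day 2.5 replicate 2 or AGN day 4 replicate 1 (-0.32 to -0.30, edgeR adjusted p = 0.0503 to 0.0568).

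Levels of different genes were compared per length, as CPM per kb of merged exon. Summed over the family, the level was 8.55 ± 0.35 CPM per kb in PM (SD, n = 3), 81.6 ± 0.92 with CD1530 at day 4 and 87.0 ± 1.6 with AGN at day 4. Nfic was the largest part of the sum in every group. Its share was 71.8% ± 1.7 in PM, 84.1% ± 1.4 at day 0.25 with CD1530, and 55.6% ± 0.4 and 56.1% ± 0.42 at day 4 with CD1530 and AGN. The share of Nfix went from 13.0% ± 2.3 in PM to 26.4% ± 0.6 with CD1530 and 29.7% ± 0.46 with AGN. Nfia went from 3.74% ± 0.43 to 10.5% ± 0.42 and 8.71% ± 0.058. Nfib went the other way, from 11.4% ± 1.1 to 7.45% ± 0.14 and 5.45% ± 0.15, although its CPM rose. These shares have no test. With the length of the longest transcript in place of merged exons, Nfic still led, at 65.4% in PM and 49.7% and 50.4% at day 4.

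**Figure D4:**
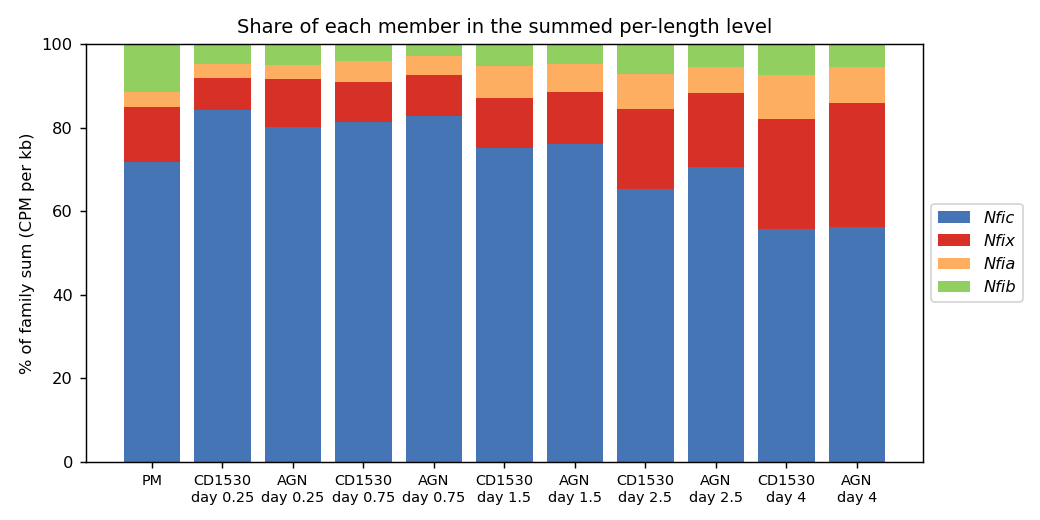
Mean share of each gene in the family sum of CPM per kb of merged exon (y axis, percent), stacked for each of the 11 groups (x axis, 3 libraries a group). Nfic is the largest part of every bar and widest at days 0.25 and 0.75, and Nfix grows to 26.4% and 29.7% at day 4.

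The genes whose course was most like that of each member were taken by Pearson correlation of mean log2(CPM + 1) over the 11 group means, among 11302 genes. Because every group shares the time axis, high values arise for many genes: 13.0% of them reached 0.9 with Nfic, 10.5% with Nfia, 8.73% with Nfix and 3.11% with Nfib. For Nfia the 5 highest were Pofut1, an O-fucosyltransferase that acts on Notch receptors, the cytochrome P450 Cyp1b1, Samd4, Crim1 and the glutamate receptor subunit Gria3, at 0.991 to 0.994. For Nfic they were Extl3, a heparan sulfate glycosyltransferase, Ctif, Itgb1 (integrin beta-1), the receptor phosphatase Ptprs and the sorting receptor Sort1, at 0.992 to 0.994. For Nfix they were Ext1, a heparan sulfate polymerase, Trim3, Ikbip, Cdc42ep3 and Olfml2b, at 0.989 to 0.992. For Nfib they were Nnmt, a methyltransferase of nicotinamide, Fndc10, the metalloprotease Adamts18, the Wnt signalling protein Dvl1 and Gne, which starts sialic acid synthesis, at 0.978 to 0.985. Within the family, correlations over the 11 means were 0.82 between Nfib and Nfic and 0.973 between Nfia and Nfix, with the other pairs between. These are descriptions over 11 points that share libraries and time.

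Genes around the family were described from lists, by counts and medians only. For genes with reported NFI-dependent activation, 8 of 13 listed were in the table. At day 4 against PM, 6 of these 8 were called higher and 1 lower in both trajectories, with medians of 1.75 (CD1530) and 1.88 (AGN) against 0.04 and 0 over all genes. In those comparisons 43.3% (CD1530) and 41.6% (AGN) of all genes were called higher, and 39.9% and 40.4% lower. Between ligands at day 4, 3 of the 8 were higher and 4 lower with CD1530, with a median of -0.42. Of all genes, 22.7% were called higher and 24% lower in that comparison. The osteoblast transcription factor Sp7 was lower with CD1530 (-3.25 ± 0.26, edgeR adjusted p = 3.44e-14), at 0.41 ± 0.12 CPM against 3.99 ± 0.33 with AGN. Fabp7, a fatty acid binding protein of radial glia, was higher (1.68 ± 0.27, edgeR adjusted p = 1.38e-06), at 2.88 ± 0.39 CPM against 0.887 ± 0.19. Klf4, a transcription factor of pluripotent and epithelial cells, was lower (-1.02 ± 0.05, edgeR adjusted p = 2.21e-19), and so was Apcdd1, a Wnt inhibitor (-0.89 ± 0.04, edgeR adjusted p = 3.04e-20).

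For genes with reported NFI-dependent repression, 5 of 6 were in the table. At day 4 against PM, 3 were called higher and 1 lower with CD1530, and 4 higher and 1 lower with AGN. Of all genes, 43.3% were called higher and 39.9% lower with CD1530, and 41.6% and 40.4% with AGN. The one called lower in both was Ezh2, the histone H3K27 methyltransferase, at -0.94 ± 0.03 with CD1530 (edgeR adjusted p = 2e-26) and -0.89 ± 0.03 with AGN (edgeR adjusted p = 1.58e-25). Between ligands at day 4, 0 were higher and 3 lower with CD1530: Insc (-1.33 ± 0.46, edgeR adjusted p = 0.0149), Nfatc4 (-0.55 ± 0.04, edgeR adjusted p = 3.37e-16) and Bbx (-0.33 ± 0.09, edgeR adjusted p = 0.0034). In that comparison 22.7% of all genes were called higher and 24% lower. Insc was scarce in both, at 0.426 ± 0.23 CPM with CD1530 and 1.1 ± 0.5 CPM with AGN.

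Of 7 reported upstream regulators of NFI genes, 6 could be read, and each of these 6 was called higher than PM at day 4 with CD1530. With AGN, 4 were called higher and 1 lower. Of all genes, 43.3% were called higher and 39.9% lower with CD1530, and 41.6% and 40.4% with AGN. Between ligands at day 4, 2 were higher, 1 lower and 3 not called, with 22.7% of all genes called higher and 24% lower. The neural transcription factors Pou3f2 (5.47 ± 0.3, edgeR adjusted p = 2.78e-19) and Pax6 (4.82 ± 0.24, edgeR adjusted p = 9.26e-21) were higher with CD1530. Both were near 0 with AGN: Pou3f2 was at 9.22 ± 1.5 CPM against 0.201 ± 0.088 CPM, and Pax6 at 10.4 ± 0.61 against 0.362 ± 0.097 CPM. Sox9, the transcription factor of cartilage, was lower (-1.05 ± 0.05, edgeR adjusted p = 2.97e-21), at 69 ± 1.9 CPM against 143 ± 9.2 CPM. All 8 Smad genes, whose proteins carry TGFβ and BMP signals and have a DNA-binding domain related to that of nuclear factor I, were in the table. At day 4 against PM, 6 were called higher and 1 lower with CD1530, and 7 higher and 1 lower with AGN. Between ligands at day 4, 5 were higher and 2 lower with CD1530, with a median of 0.17. The shares of all genes given above for the regulators apply to these Smad counts too. Smad9 was lower (-2.2 ± 0.18, edgeR adjusted p = 2.52e-13), and Smad3 (0.65 ± 0.05, edgeR adjusted p = 8.86e-15) and Smad1 (0.48 ± 0.05, edgeR adjusted p = 1.02e-10) were higher.

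Markers were read beside these results to see what the cultures held. The shares of all genes called, given above for each comparison, apply to the counts of markers as well. All 10 retinoic acid receptor targets were higher with CD1530 from day 0.75 onwards, with a median of 5.02 at day 4. The values there ran from 0.76 for Crabp2 to 10.22 for Stra8, a gene known to be induced by retinoic acid. At day 0.25 7 of the 10 were already called higher. Tendon markers were present in both conditions, with a summed level of 17200 to 17900 CPM with CD1530 and 19600 to 21000 CPM with AGN at day 4, over 6 of 6 markers. Most of that sum was collagen: Col1a1 at 9790 ± 320 and 11500 ± 520 CPM, and Col3a1 at 4200 ± 32 and 5770 ± 86 CPM. Col1a1 was already at 1250 ± 170 CPM in PM. Of the 6 tendon markers at day 4, 1 was called higher with CD1530, 3 lower and 2 not called. Scx was at 858 ± 17 CPM with CD1530 and 1220 ± 28 with AGN, and Tnmd at 5.12 ± 0.59 and 10.4 ± 0.72. Mkx was at 36.7 ± 2.1 and 37.2 ± 3.1 CPM, and Tnc at 2610 ± 43 and 1860 ± 130 CPM. The 7 cartilage markers summed to 246 to 253 CPM with CD1530 and 3130 to 3260 CPM with AGN, and 7 of 7 were called lower with CD1530. Nfia and Nfib were higher, and Nfic and Nfix lower, with CD1530 at that time. Neural and glial markers, of which 7 of 8 were in the table, also moved with ligand at day 4, when all 7 were higher with CD1530 and their sum was 702 to 711 CPM against 433 to 469 CPM. Most of that sum was Nes, a neural progenitor intermediate filament also found in mesenchymal cells, at 632 ± 5.4 CPM with CD1530 and 428 ± 19 CPM with AGN. The neural transcription factors were at lower levels in both conditions: Sox1 at 16 ± 1.8 CPM with CD1530 and 0.367 ± 0.17 CPM with AGN, Pax6 at 10.4 ± 0.61 and 0.362 ± 0.097 CPM, Olig2 at 7.49 ± 0.57 and 3.91 ± 0.083 CPM, and Sox10 at 1.77 ± 0.23 and 0.805 ± 0.33 CPM. Tubb3, a neuronal tubulin, was at 36.6 ± 0.9 and 13.3 ± 0.83 CPM. At day 2.5, 3 of the 7 were called higher with CD1530 and 2 lower. The higher ones were Sox1 (29.5 ± 1.6 against 0.753 ± 0.24 CPM), Pax6 (12.1 ± 1.6 against 1.82 ± 0.096 CPM) and Tubb3 (45.8 ± 2.2 against 33.8 ± 2.3 CPM), and the lower ones Nes (531 ± 21 against 611 ± 33 CPM) and Fabp7. The sum, most of it Nes, was 599 to 643 CPM with CD1530 and 618 to 675 CPM with AGN at that time. At day 1.5, 3 were higher and 1 lower, and the sums were 438 to 449 and 400 to 411 CPM.

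Endothelial markers moved with ligand at the earlier times. At day 1.5, when all 4 members were called higher with CD1530, all 4 endothelial markers were as well, with sums of 346 to 365 CPM with CD1530 and 207 to 232 CPM with AGN. Their differences were 0.90 ± 0.08 for the VEGF receptor Kdr, 0.77 ± 0.15 for the transcription factor Tal1, and 0.66 ± 0.05 and 0.56 ± 0.07 for the adhesion molecules Pecam1 and Cdh5. All 4 were also called higher at day 0.75, with sums of 292 to 348 against 221 to 234 CPM, when Nfib was the member called higher. At day 2.5, 2 of 4 were higher, with sums of 216 to 226 against 174 to 186 CPM, and at day 4, 1 was higher and 1 lower, with sums of 131 to 143 against 124 to 132 CPM. Pecam1, at 139 ± 2.8 CPM with CD1530 at day 1.5, was already at 92.9 ± 2 CPM in PM. Cdh5, Kdr and Tal1 were at 2.5 ± 0.4, 3.87 ± 0.79 and 0.576 ± 0.37 CPM in PM. Among the other lists, paraxial mesoderm markers summed to 68.2 to 72.3 CPM in PM, 99.7 to 104 CPM at day 4 with CD1530 and 74.7 to 78.6 CPM with AGN, and 4 of 6 were called lower than in PM with CD1530 and 5 of 6 with AGN. Most of the day 4 sums was Meox1, at 73.7 ± 2 CPM with CD1530 and 65.4 ± 2.4 CPM with AGN, against 5.91 ± 0.95 CPM in PM. Tbx6 went from 9.56 ± 0.77 CPM in PM to 0.285 ± 0.16 CPM with CD1530 and 0.36 ± 0.21 CPM with AGN. The 4 pluripotency markers summed to 1800 to 1830 CPM in PM, 155 to 161 CPM at day 4 with CD1530 and 237 to 248 CPM with AGN. At day 4 Pou5f1 was called lower with CD1530, at 26.6 ± 1.6 against 149 ± 3.2 CPM. Nanog (46.1 ± 1.2 against 35.2 ± 1.7 CPM) and Sox2 (77.9 ± 5.3 against 49.2 ± 1.2 CPM) were called higher, and Zfp42 was not called. At day 4 endoderm markers summed to 10.5 to 12.2 CPM with CD1530 and 16.8 to 20.4 CPM with AGN. Of these 3, Foxa2 was called lower with CD1530, at 4.28 ± 0.39 against 14.1 ± 1.2 CPM. Gata4 (0.9 ± 0.22) and Sox17 (0.75 ± 0.18) were called higher with CD1530. Skeletal muscle markers, of which 3 of 5 were in the table, summed to at most 1.07 CPM at day 4. The part of any of these cell types in the differences between ligands was not tested. In these bulk samples, more cells with a transcript and more of it in each cell cannot be told apart.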

How the data were processed

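The authors aligned paired reads of 150 bases to GRCm38 with STAR and assigned them to genes with featureCounts; what they deposited is a table of raw counts. Annotation release, strand setting and treatment of multiply aligned reads are not given in the sources used here. The table had been filtered, since every gene reached at least 0.611 CPM in its third-highest library. Groups and replicates came from the labels. Per the methods the replicates are biological, and p-values measure only the spread between these samples.

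All 33 libraries entered 1 robust quasi-likelihood fit in edgeR 4.0.16 (R 4.3.3) with a mean per group and TMM normalization. filterByExpr removed no gene. P-values were adjusted by Benjamini-Hochberg over 17120 genes per contrast, and CD1530 was compared with AGN, later groups with PM and times with the preceding one. The fit was tested on simulated counts for the ligands at day 4. It recovered 20 of 50 changes of 1.25-fold and 28 of 50 of 1.5-fold. At 2-fold it recovered 43 of 50 and at 4-fold 49 of 50, with 6 false calls among 146. Positions and lengths came from GENCODE M21, which matched all identifiers, and promoters from RefSeq. Total counts were 17.1 to 38.1 M, and the biological coefficient of variation was 4.68%. No replicate columns were identical.

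The named genes were the 4 members, the 5 genes most alike in course with a mean of at least 5 CPM, and up to 4 called members of a list by size of change, besides markers and ligand targets that check the cultures. Members, lists and tests were chosen with earlier results of these data known. Alternatives were DESeq2 1.42.0 size factors and tests, scaling by library totals, other filters, a fit that is not robust, a fit of only the groups compared, replicate blocks, and each library left out.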

Additional observations from a re-analysis of the deposited data

Results flagged for a closer look

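The ligand difference of every member changed over the 5 time points. In the F test with 4 degrees of freedom, F was 27.8 for Nfic, 10 for Nfix, 9.36 for Nfia and 6.59 for Nfib, and 48.8% of all genes passed the same test. Among single steps, the change from day 0.75 to day 1.5 was larger with CD1530 than with AGN by 0.47 (log2) for Nfia and by 0.41 for Nfic. Nfic then moved by -0.49 relative to AGN from day 1.5 to day 2.5. For Nfib the step from day 0.25 to day 0.75 differed by 0.41, and for Nfix the step from day 2.5 to day 4 differed by -0.34. Each was singled out because a test of the difference between ligands passed the threshold, and the cause was not tested.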

How the results depend on the processing

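Of 896 values of the members recomputed with another normalization, filter, test or set of groups, 889 kept their direction and their side of the threshold. Scaling by library totals alone gave -0.07 for Nfic between ligands at day 4, no longer called, 0.01 for Nfib with CD1530 at day 0.75 against PM, which turned a difference near 0, and 0.51 for the Nfix step from day 0.25 to day 0.75 between ligands, now called. DESeq2 gave 0.50 for that step and also called it. A fit of the compared groups only gave 0.26 for Nfib with CD1530 from day 0.25 to day 0.75 and 0.41 for its difference between ligands over that step, both no longer called, and 0.03 for the Nfib difference from day 2.5 to day 4. That fit called 804 genes between ligands at day 0.25 and 1236 at day 0.75, against 329 and 3076 in the fit of all libraries, and rests on fewer samples. For the other values the cause was not tested.

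Of 864 values with 1 library left out, 830 kept their call and direction. Between ligands, the range was -0.15 to 0.02 for Nfia, -0.11 to 0.00 for Nfib and -0.73 to -0.44 for Nfix at day 0.25, -0.11 to -0.01 for Nfic and -0.13 to 0.02 for Nfix at day 0.75, 0.19 to 0.31 for Nfix at day 1.5, and 0.15 to 0.21 for Nfia and -0.11 to -0.10 for Nfic at day 4. Against PM it was -0.13 to 0.01 for Nfib with CD1530 at day 0.75 and -0.01 to 0.28 for Nfix with CD1530 at day 0.25. The AGN step of Nfix from day 0.25 to day 0.75 ranged from 0.29 to 0.44. Differences of steps ranged from 0.33 to 0.48 (Nfib) and 0.37 to 0.66 (Nfix) from day 0.25 to day 0.75, and from -0.24 to -0.15 (Nfia), -0.09 to 0.06 (Nfib) and -0.38 to -0.30 (Nfix) from day 2.5 to day 4.

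No pairing by replicate number was seen: between ligands at one time, libraries with the same number had correlations of their deviations of -0.07 to 0.03. Over all pairs of groups the range was -0.29 to 0.23 for the same number and -0.3 to 0.36 for other numbers. Counting noise enters these correlations, so a small shared effect could go unseen. With the replicate number as a block, the 112 values of the members changed 0 calls and moved by at most 0.01, and 7914 genes were called between ligands at day 4 against 7980.

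With the longest transcript, the shares in the family sum were 65.4% (Nfic) and 16% (Nfib) in PM, 49.7% (Nfic), 29.9% (Nfix) and 10.3% (Nfib) with CD1530 at day 4, and 50.4%, 33.7% and 7.55% with AGN, where Nfia held 8.41%. Counts of called list members moved for the Smad genes with AGN at day 4 against PM under library totals (5) and for skeletal muscle under a filter at 1 CPM (1 with either ligand). With 1 library left out they ranged from 1 to 2 for endothelial markers and 1 to 3 for muscle markers between ligands, and 1 to 2 for muscle markers with AGN against PM. By Spearman correlation 0, 1, 0 and 0 of the 5 genes most alike to Nfia, Nfib, Nfic and Nfix remained.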
